A study of Capra hircus with 6 samples.

Results

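Chemokines are small secreted proteins that attract leukocytes through G protein-coupled receptors. CXC ligands with a Glu-Leu-Arg motif, such as CXCL1, CXCL6 and CXCL8, act on CXCR1 and CXCR2 and are best known in human for drawing neutrophils. CC ligands such as CCL2, CCL5 and CCL20 attract monocytes and lymphocytes, and CXCL10 is an interferon-inducible ligand of CXCR3. Stromal cells of fat make several of these ligands when interleukin-1, tumour necrosis factor or Toll-like receptors activate NF-kB.

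The inflammatory chemokine ligands were a list of 10 names, CCL2, CCL5, CCL20, CXCL1, CXCL2, CXCL3, CXCL5, CXCL6, CXCL8 and CXCL10, looked up by identifier among 16285 gene rows. CCL5, CCL20, CXCL8 and CXCL10 had a row under their own identifier, which made 4 members. A further 5 rows with a locus number as identifier carried a listed name in the deposited symbol column. These were LOC102175889 (CCL2), LOC102182115, LOC102182395 and LOC102182683 (all CXCL1) and LOC102181582 (CXCL6). These 5 locus rows were added after their values were seen and are counted apart from the 4 members. CXCL2, CXCL3 and CXCL5 were matched neither by identifier nor by symbol and were not analysed under those names. The description of LOC102182395, however, is a name used in human for CXCL3.

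Gene expression had been measured by RNA sequencing of goat (Capra hircus) adipose mesenchymal stem cells. There were 3 libraries whose labels give a genotype overexpressing YAP, and 3 control libraries whose labels give the genotype WT. All 6 libraries carry the label of adipogenic differentiation as treatment. The labels do not say whether the control cells carried an empty vector, and name no clone, animal or separate culture, so the p-values measure the spread between these libraries, which may be technical.

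Levels are in FPKM, the authors' fragment counts divided by gene length and by the counted fragments of the same library, and each group has a table of its own. Totals recovered from the steps between FPKM values were 32593380 to 37131015 counted fragments in the libraries labelled YAP and 33871397 to 34967990 in the control libraries. YAP1, the gene named by the labels, measured 28.4, 25.6 and 28.2 FPKM in the libraries labelled YAP, against 25.8, 27.0 and 28.9 FPKM in the control libraries. Its difference was 0.01 ± 0.08 (SE) on the log2(FPKM + 1) scale, with a limma adjusted p of 0.95, so the values do not show the labelled overexpression, and the libraries are called by their label throughout. The design text speaks of a line overexpressing TAZ, whose gene is WWTR1. WWTR1 measured 21.9, 19.2 and 23.1 FPKM in the libraries labelled YAP, against 30.2, 29.9 and 35.9 FPKM in the control libraries, a log2 difference of -0.56 (limma adjusted p 0.0013), so neither gene was raised. The stromal markers fixed for the cell type were all tested, with summed levels of 23627 to 24233 FPKM in the libraries labelled YAP and 20750 to 22006 FPKM in the control libraries. Of these 9 markers 5 were higher, among them DCN (log2 difference 0.96) and PDGFRB (0.83), and ENG (-0.88) and NT5E (-0.42) were lower. The shares over all tested genes were 12.9% higher and 23.0% lower. Of 8 adipocyte marker names, 7 had a row and 2 were tested. CIDEC, a lipid droplet protein, fell to 9.56 ± 0.85 FPKM in the libraries labelled YAP, against 18.3 ± 1.31 FPKM in the control libraries (SD, n = 3 each; log2 difference -0.87; limma adjusted p 3.2e-05), and CEBPA did not pass at -0.15. The other 5 were below the filter on low values, with 2 to 4 reads of PPARG and 2 to 17 reads of ADIPOQ per library.

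Every detected member and locus row was higher in the libraries labelled YAP. CCL5, CCL20 and CXCL8 rose by 28.8, 6.33 and 7.23 times in mean FPKM, and the 5 locus rows rose by 2.69 to 4.58 times. CXCL10 had 0 reads in all 6 libraries. By limma with Benjamini-Hochberg adjustment over 10761 tested genes, 3 of the 4 members were past the threshold of 0.05, all 3 of them higher. Over all tested genes 12.9% were called higher and 23.0% lower. In each of the 8 detected rows every library labelled YAP was above every control library, which held for 16.7% of tested genes. The exact two-sided permutation p was 0.1 in each row, the smallest that 3 libraries against 3 allow. In these bulk samples, fewer cells of a type and less RNA per cell cannot be told apart.

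**Figure D1:**
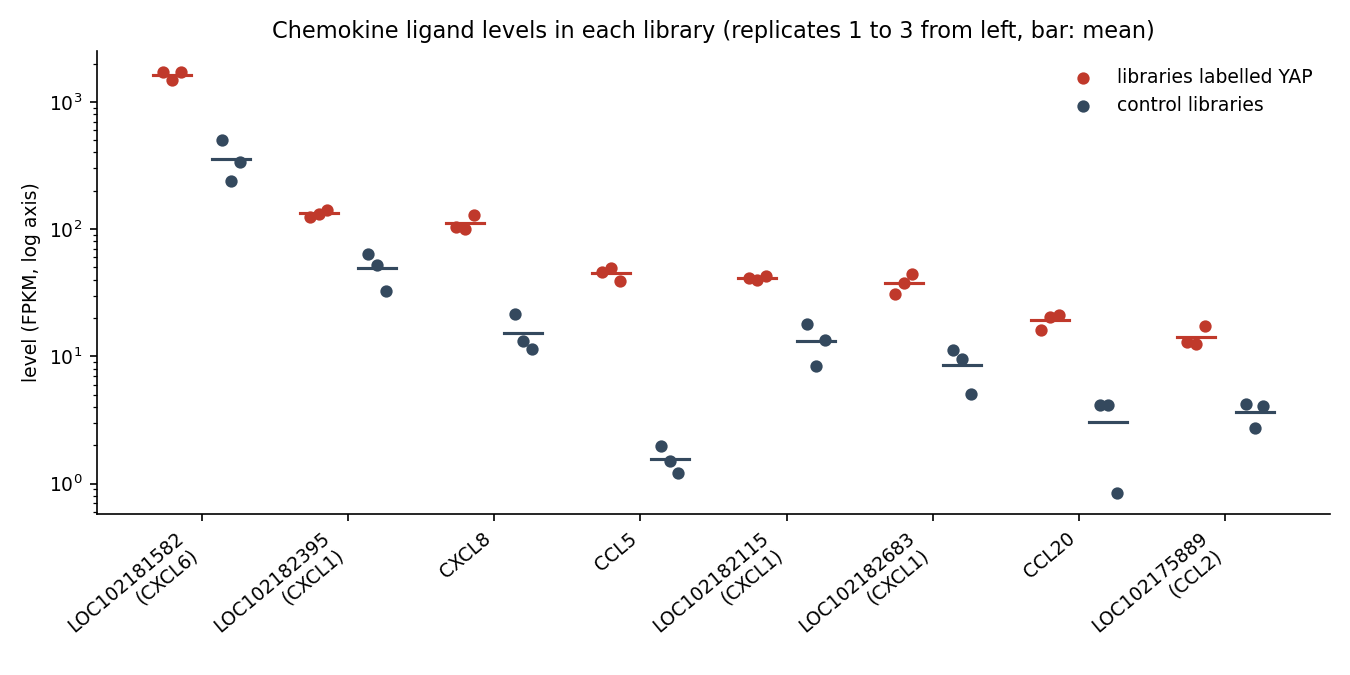
Level of each detected chemokine ligand row in FPKM on a log axis, for the 3 libraries labelled YAP (left of each pair) and the 3 control libraries (right). Points are libraries in replicate order and bars are means. In all 8 rows the groups do not overlap, and LOC102181582 (CXCL6) is the highest row in both.

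CCL5, which attracts T cells and monocytes, differed most of the 8 rows. Its level was 46.1, 49.5 and 39.4 FPKM in the libraries labelled YAP, against 1.97, 1.51 and 1.20 FPKM in the control libraries, from 1230 to 1432 reads against 35 to 58 reads. All 3 libraries labelled YAP were far above all 3 control libraries. The log2 difference was 4.17 ± 0.12 (SE), with a 95% interval of 3.90 to 4.44 and a limma adjusted p of 1.3e-09, rank 7 of 10761 tested genes by size of increase. The difference was 4.78 with a pseudocount of 0.1 FPKM and 4.85 by limma-voom on recovered reads, over 1.5 times larger as a fold, because a pseudocount of 1 compresses the low control values.

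CCL20, the ligand of CCR6 that attracts lymphocytes and dendritic cells in human, had the lowest level of the 3 called members in the libraries labelled YAP. It measured 16.0, 20.4 and 21.2 FPKM in the libraries labelled YAP, against 4.12, 4.15 and 0.84 FPKM in the control libraries. Control replicate 3 stood apart, with 24 reads where the other control libraries had 116 and 119. The log2 difference was 2.46 ± 0.31 (SE; 95% interval 1.77 to 3.15; limma adjusted p 0.000136). Without control replicate 3 it was 1.97, still past the threshold.

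CXCL8, the interleukin-8 gene, encodes a ligand of CXCR1 and CXCR2. Its levels were 103, 101 and 128 FPKM in the libraries labelled YAP, against 21.4, 13.2 and 11.3 FPKM in the control libraries. The highest control library lay far below the lowest library labelled YAP, and the log2 difference was 2.82 ± 0.18 (SE; 95% interval 2.42 to 3.22; limma adjusted p 5.8e-07).

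CXCL10, which attracts CXCR3-bearing T cells, had 0 reads in every library. A count of 0 allows up to 3 reads, which is 0.0808 to 0.0920 fragments per 1e6 counted fragments across the 6 libraries, and this limit covers counting error only. It was not tested.

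LOC102181582 (CXCL6), a ligand of CXCR1 and CXCR2 in human, was by far the most abundant row. It measured 1721, 1480 and 1706 FPKM in the libraries labelled YAP, against 497, 240 and 335 FPKM in the control libraries. It ranked 22, 31 and 21 by level among 16285 rows in the libraries labelled YAP and 147, 299 and 204 in the control libraries. The log2 difference was 2.25 ± 0.20 (SE; 95% interval 1.81 to 2.69; limma adjusted p 7.8e-06). It took 0.269, 0.231 and 0.266% of counted fragments in the libraries labelled YAP and 0.0776, 0.0374 and 0.0524% in the control libraries.

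The 3 rows named CXCL1, a neutrophil attractant also called growth-regulated alpha protein, carried that symbol with different descriptions. LOC102182115 and LOC102182683 were described as growth-regulated alpha protein or alike, and LOC102182395 as a growth-regulated protein homolog gamma, a name used in human for CXCL3, so its symbol and description differ. LOC102182395 was the highest, at 125, 131 and 143 FPKM in the libraries labelled YAP against 63.3, 52.4 and 32.6 FPKM in the control libraries (log2 difference 1.46 ± 0.18 SE; limma adjusted p 0.000123). LOC102182683 measured 30.9, 38.0 and 44.7 FPKM in the libraries labelled YAP against 11.1, 9.49 and 5.07 FPKM in the control libraries (log2 difference 2.07 ± 0.22 SE; adjusted p 2.9e-05). LOC102182115 measured 40.9, 39.8 and 43.1 FPKM in the libraries labelled YAP and 17.9, 8.40 and 13.4 FPKM in the control libraries (log2 difference 1.63 ± 0.19 SE; adjusted p 7.4e-05). The control libraries differed from each other more than the libraries labelled YAP did. No source used here says how reads that fit several relatives were counted, and the split among these rows is therefore uncertain. Their sum was 197 to 230 FPKM in the libraries labelled YAP and 51.1 to 92.4 FPKM in the control libraries, 2.98 times as high in mean.

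LOC102175889 (CCL2), a monocyte attractant acting through CCR2, measured 13.1, 12.4 and 17.2 FPKM in the libraries labelled YAP, against 4.25, 2.76 and 4.05 FPKM in the control libraries. The log2 difference was 1.70 ± 0.15 (SE; limma adjusted p 5.8e-06), and the groups did not overlap.

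**Figure D2:**
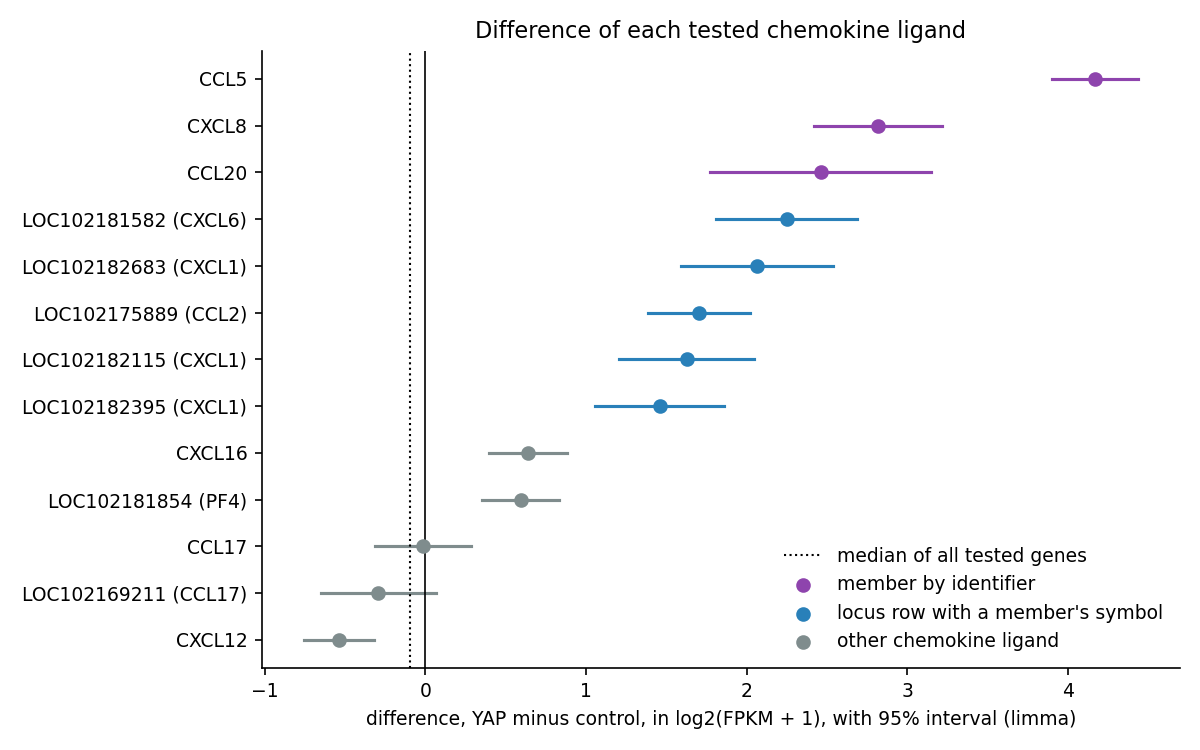
Log2(FPKM + 1) difference, libraries labelled YAP minus control libraries, of each tested chemokine ligand row with its 95% interval from limma. CCL5 lies at 4.17 and CXCL12 at -0.54, and the dotted line is the median of all tested genes at -0.10.

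The order of the rows by level differed between the groups. In the libraries labelled YAP it ran from LOC102181582 through LOC102182395, CXCL8, CCL5, LOC102182115, LOC102182683 and CCL20 to LOC102175889. LOC102182395 overlapped CXCL8 in range, CCL5 overlapped LOC102182115, LOC102182115 overlapped LOC102182683, and CCL20 overlapped LOC102175889, while the other neighbours did not overlap. In the control libraries CCL5 was lowest, and its range ran into that of CCL20. Summed over the 9 rows, the level was 2096, 1872 and 2142 FPKM in the libraries labelled YAP and 622, 332 and 404 FPKM in the control libraries. LOC102181582 made up 79.1 to 82.1% of that sum in the libraries labelled YAP and 72.3 to 83.0% in the control libraries.

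Spread between replicates was larger among the controls. The coefficient of variation of the 8 detected rows was 4.08 to 18.3% in the libraries labelled YAP and 22.0 to 62.6% in the control libraries. Control replicate 1 was the highest control library in 7 of the 8 rows. Each of the 8 rows stayed past the threshold when any single library was left out.

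Ratios between ligands within a library do not depend on its depth. CCL5 was 44.6, 49.0 and 30.8% of CXCL8 in the libraries labelled YAP, against 9.22, 11.5 and 10.6% in the control libraries. CXCL8 was 6.01, 6.82 and 7.50% of LOC102181582 in the libraries labelled YAP and 4.30, 5.50 and 3.38% in the control libraries. LOC102182395 was 4.05, 3.45 and 3.19 times LOC102182683 in the libraries labelled YAP and 5.68, 5.53 and 6.42 times in the control libraries. Those 3 ratios did not overlap between groups, while that of LOC102182395 to LOC102182115 did. Over the 4 ratios, chosen after their values were seen, the exact permutation p was 0.1 for the separated ones and 0.7 for the last, or 0.133 and 0.7 after adjustment.

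**Figure D3:**
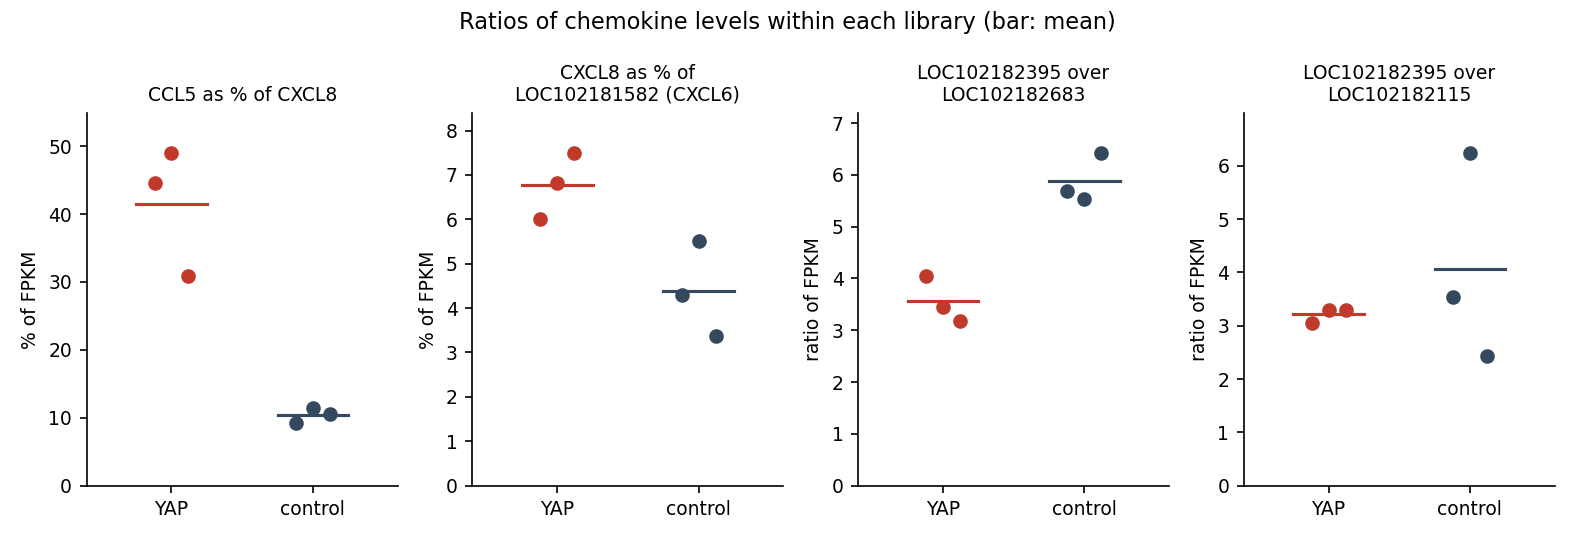
Ratios of chemokine levels within each library, in percent or as a plain ratio of FPKM, for libraries labelled YAP (left) and control libraries (right) in each panel. Points are libraries and bars are means, and the groups are apart in the first 3 panels and overlap in the last.

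CXCL8 and most of the CXC rows are neighbours in the RefSeq gene order of assembly ARS1.2, used here for order alone. The consecutive protein-coding genes were CXCL8, LOC102181582, PPBP, LOC102181854 (PF4), LOC102182115, LOC102182395 and LOC102182683, and CXCL10 lay 25 genes after CXCL8. The cluster was not uniform in level or in size of difference. Each of these consecutive genes was higher in the libraries labelled YAP, but most are the CXCL8, CXCL6 and CXCL1 rows already described. Of all tested genes 12.9% were called higher, and in 16.7% every library labelled YAP was above every control library. LOC102181854, annotated as the platelet chemokine PF4, measured 17.0, 20.6 and 16.9 FPKM in the libraries labelled YAP against 13.5, 10.9 and 10.7 FPKM in the control libraries, a log2 difference of 0.59 ± 0.11 (SE; limma adjusted p 0.0017). PPBP, another platelet chemokine of this cluster, was below the filter on low values. It had 4, 8 and 16 reads in the libraries labelled YAP and 1, 0 and 0 reads in the control libraries. With no filter it was called higher (log2 difference 0.66, limma adjusted p 0.0298), and all libraries labelled YAP were above all control libraries.

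**Figure D4:**
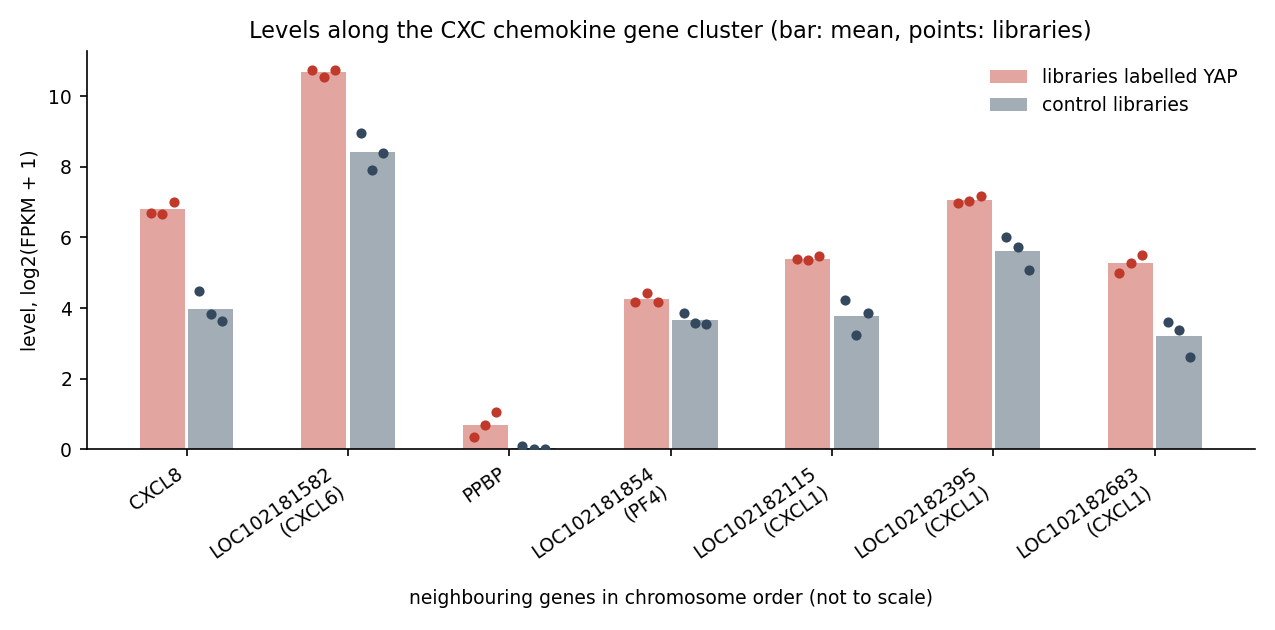
Mean level in log2(FPKM + 1) of 7 neighbouring CXC chemokine genes in chromosome order, not to scale, for libraries labelled YAP (left bar) and control libraries (right bar). Points are libraries, PPBP is lowest in both groups, and LOC102181582 is highest.

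Of 29 other chemokine ligand names fixed as a list, 14 had a row and 3 were tested, with 1 higher, 1 lower and 1 not past the threshold. CXCL16, a transmembrane ligand of CXCR6, rose to 24.8 ± 2.05 FPKM in the libraries labelled YAP, against 15.6 ± 2.35 FPKM in the control libraries (SD, n = 3 each; log2 difference 0.64, limma adjusted p 0.0011). CXCL12, the homeostatic ligand of CXCR4 made by stromal cells, fell to 1.40 ± 0.07 FPKM in the libraries labelled YAP, against 2.51 ± 0.37 FPKM in the control libraries (SD, n = 3 each; log2 difference -0.54, limma adjusted p 0.00165). By limma-voom on recovered reads the CXCL12 difference was -0.83. CCL17, a T cell attractant, did not pass, with a log2 difference of -0.02, and a locus row of the same symbol, LOC102169211, did not pass at -0.29 (adjusted p 0.18). Without YAP replicate 1 that locus row did pass, at -0.50 (adjusted p 0.0219), and so it did with the replicate block (limma adjusted p 0.0338). The median of the 3 was -0.02, against -0.10 over all tested genes, of which 12.9% were called higher and 23.0% lower.

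Rows of CXCR1 and CXCR2, the receptors of CXCL1, CXCL6 and CXCL8, had at most 11 reads in any library. Of 23 receptor names, 15 had a row and 3 were tested, with 1 lower and none higher. Among all tested genes 23.0% were called lower and 12.9% higher. The row with the identifier CXCR1, whose deposited symbol is CXCR2, had 5, 3 and 4 reads in the libraries labelled YAP and 1, 4 and 2 reads in the control libraries, and the row with the identifier CXCR2 had 10, 1 and 11 reads in the libraries labelled YAP and 0, 1 and 0 reads in the control libraries. CXCR4, the CXCL12 receptor, fell to 2.40, 3.70 and 2.85 FPKM in the libraries labelled YAP, against 14.0, 12.6 and 13.6 FPKM in the control libraries (log2 difference -1.87 ± 0.12 SE; limma adjusted p 4.7e-07). ACKR1 and ACKR3 are atypical receptors that bind chemokines without G protein signalling, and neither passed. ACKR1 averaged 17.6 FPKM in the libraries labelled YAP and 14.8 FPKM in the control libraries, and ACKR3 averaged 22.4 FPKM in the libraries labelled YAP and 21.7 FPKM in the control libraries. ACKR1 passed with both other scalings of the libraries, at log2 differences of 0.32 and 0.28, and with the replicate block (limma adjusted p 0.0432).

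Of 18 names of inducing cytokines and their receptors, 16 had a row and 13 were tested, with 7 higher, 1 lower and 5 not past the threshold. IL1A, an interleukin-1 ligand that induces these chemokines, rose to 9.68, 10.2 and 11.9 FPKM in the libraries labelled YAP, against 4.05, 4.63 and 2.45 FPKM in the control libraries (log2 difference 1.33 ± 0.16 SE; limma adjusted p 8.6e-05). IL1RAP, the shared interleukin-1 coreceptor, TLR2 and IFNGR1 rose by 0.77, 0.71 and 0.49 on the log2(FPKM + 1) scale. By limma-voom on recovered reads these differences were 1.24, 1.02 and 0.52. IL1B had 5, 4 and 4 reads in the libraries labelled YAP and 0 reads in each control library, and TNF had 11 to 35 reads. TNFRSF1B, a tumour necrosis factor receptor, was the gene that fell, with a log2 difference of -0.33 and a limma adjusted p of 0.023. It did not pass under either other scaling or with no filter on low values (adjusted p 0.0541). Nor did it pass without control replicate 1 (adjusted p 0.0655) or YAP replicate 1 (0.0885). Without YAP replicate 1, a fit in which fewer of all genes passed, 4 of the 13 genes were higher and none lower. The median of the 13 was 0.30, against -0.10 over all tested genes, of which 12.9% were called higher and 23.0% lower.

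Of 22 names of transcriptional and mRNA decay regulators, 22 had a row and 21 were tested, with 15 higher, 1 lower and 5 not past the threshold. IRF7, an interferon regulatory factor, rose to 16.4, 16.8 and 11.2 FPKM in the libraries labelled YAP, against 1.24, 1.48 and 1.10 FPKM in the control libraries (log2 difference 2.78 ± 0.14 SE; limma adjusted p 7.5e-08). TNFAIP3, a feedback inhibitor of NF-kB signalling, rose to 3.02, 2.50 and 3.27 FPKM in the libraries labelled YAP, against 0.37, 0.42 and 0.34 FPKM in the control libraries (log2 difference 1.51; adjusted p 6.5e-07). TNFAIP3 reached 1 FPKM in the 3 libraries labelled YAP and in 0 control libraries, so it was tested only because of the group in which it was high, and its call is no support for the count of 15. By limma-voom on recovered reads the difference was 3.52 for IRF7 and 2.96 for TNFAIP3. RELB, an NF-kB subunit, and IRF1 rose by 1.28 and 1.33 on the log2 scale. RELA, the NF-kB subunit of the canonical dimer, did not pass at 51.2 FPKM in the libraries labelled YAP against 58.8 FPKM in the control libraries (log2 difference -0.19, adjusted p 0.058). It passed as lower with no filter on low values (adjusted p 0.036) and with the replicate block (0.0157). JUN, an AP-1 subunit, was the gene that fell (log2 difference -0.40, adjusted p 0.0125), and it did not pass with median-of-ratios scaling (adjusted p 0.0515) or without YAP replicate 1 (0.061). The median of the 21, with TNFAIP3 still among them, was 0.87, against -0.10 over all tested genes. Of all tested genes 12.9% were called higher and 23.0% lower.

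**Figure D5:**
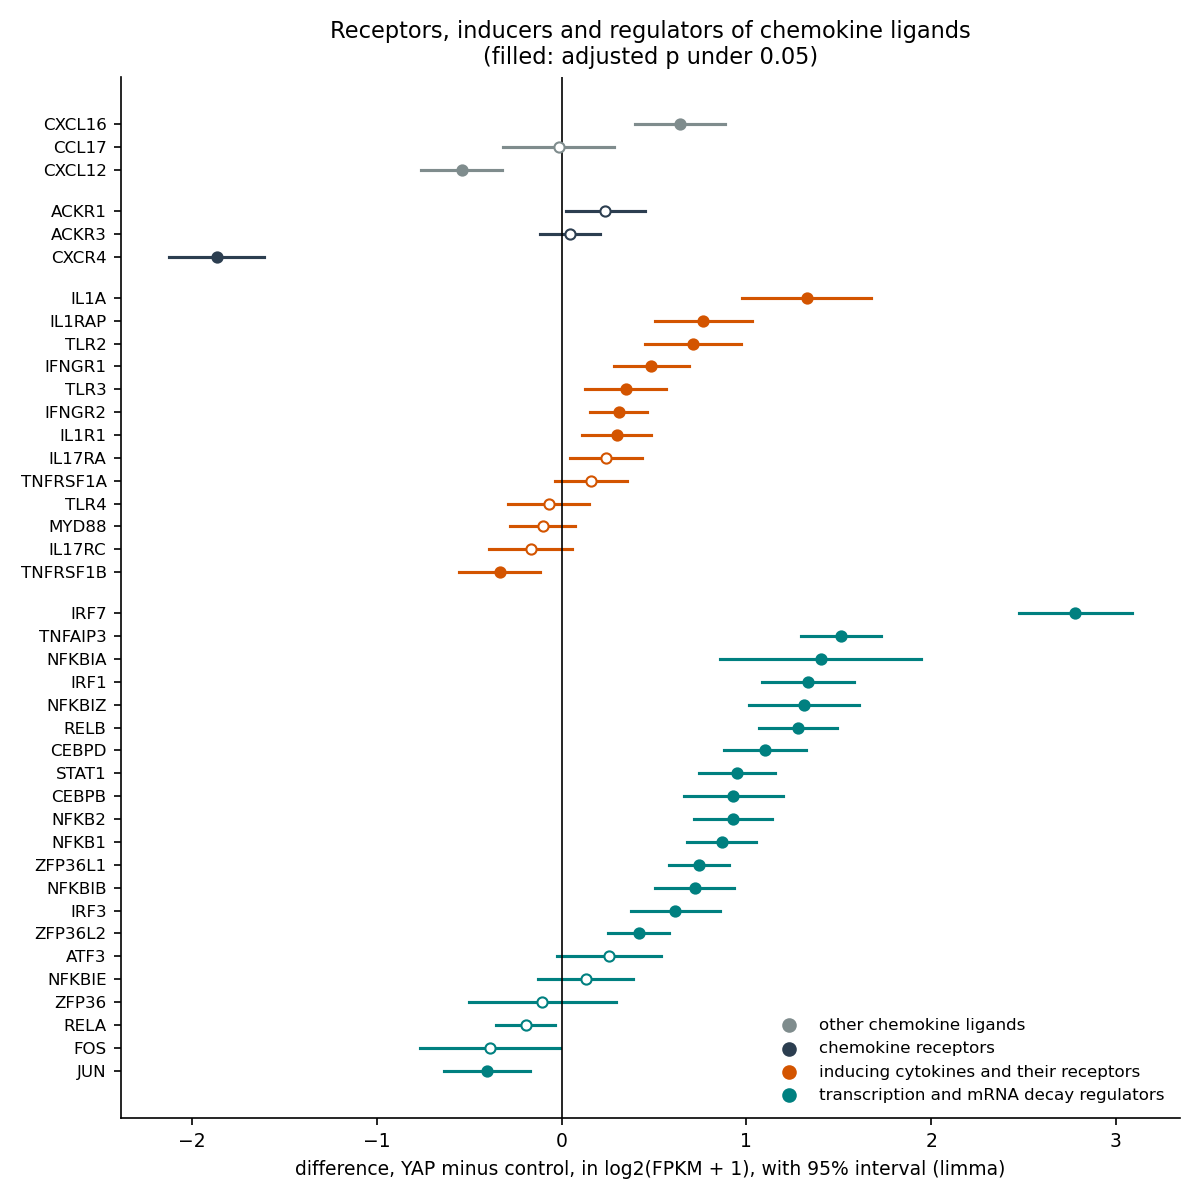
Log2(FPKM + 1) difference, libraries labelled YAP minus control libraries, of tested genes in the 4 lists, with 95% intervals from limma. Filled points passed an adjusted p of 0.05, and IRF7 at 2.78 and CXCR4 at -1.87 lie farthest out.

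Markers of leukocytes, which could bring chemokine RNA of their own, were set beside these levels. Of 17 names, 15 had a row and 4 were tested, 1 higher and 1 lower. Among all tested genes 12.9% were called higher and 23.0% lower. CD14 averaged 18.6 FPKM in the libraries labelled YAP and 9.58 FPKM in the control libraries, and CD68 averaged 2.03 FPKM in the libraries labelled YAP and 4.53 FPKM in the control libraries. The summed level of the 15 rows was 33.1 to 34.9 FPKM in the libraries labelled YAP and 25.4 to 29.2 FPKM in the control libraries. CD14 was the largest part of that sum in the libraries labelled YAP and the only row called higher, so the sum mainly follows CD14. Neither LAPTM5 nor ITGAX passed. LAPTM5 averaged 10.2 FPKM in the libraries labelled YAP and 9.47 FPKM in the control libraries, and ITGAX 1.77 and 1.92 FPKM. CD3E, below the filter on low values, had 7 to 11 reads in the libraries labelled YAP and 25 to 32 reads in the control libraries. PTPRC, the pan-leukocyte surface phosphatase, had at most 1 read in any library and AIF1 had 0 reads. Endothelial markers summed to 0.215 to 0.293 FPKM in the libraries labelled YAP and 0.336 to 0.533 FPKM in the control libraries, and epithelial markers to 0.0806 to 0.174 FPKM in the libraries labelled YAP and 0.110 to 0.474 FPKM in the control libraries. None of these rows was tested, and their members went different ways. In the libraries labelled YAP against the control libraries, PECAM1 had 2 to 12 against 32 to 51 reads, and VWF had 29 to 36 against 7 to 12 reads. CDH1 had 0 to 2 against 10 to 33 reads, while TEK, KRT8 and EPCAM overlapped between the groups.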

How the data were processed

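TRIzol RNA and a VAHTS Universal V6 library kit were used, per the labels' protocols. The tools fastp, HISAT2 and HTSeq are credited to the submitters' processing notes, and for the build, strand setting and multiply mapped reads nothing is stated in what was used here. FPKM values, scaled per library, were deposited by the authors in a table for each group. Another 6 value columns, under the names TAZ or pcDNA, matched no sample label and were not used. The name pcDNA is shared with expression vectors. Whole reads were recovered from the FPKM steps. For each gene the smallest whole length that made the reads of every library whole was taken, the same for both tables. Of values above 0, 100% were within 0.05 reads, which this choice favours, so it is no independent check. For genes seen in few libraries the reads are the fewest that fit.

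Groups came from the titles. Values were compared as log2(FPKM + 1) where 3 or more libraries reached 1 FPKM, with limma 3.58.1 in R 4.3.3 (lmFit, eBayes with a variance trend) and Benjamini-Hochberg adjustment at 0.05. The fit was run on simulated reads with known changes and a fixed spread, smaller than that of the detected chemokine rows among the control libraries. It is therefore no check of these calls at their own spread. The deposited symbol column and RefSeq (16262 of 16285 identifiers matched) gave names. Named genes were all members and up to 4 genes per list with the smallest adjusted p. Others were chosen after their values were seen. Members and lists were chosen with earlier results of these data known. Alternatives changed the pseudocount, filter, scaling, variance model, unit, replicate block and libraries used.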

Additional observations from a re-analysis of the deposited data

How the results depend on the processing

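CCL5, CCL20, CXCL8 and the 5 locus rows kept their direction and stayed past the threshold under all 13 alternatives. The log2 differences ran from 4.07 to 4.85 for CCL5, 1.97 to 2.96 for CCL20 and 2.64 to 3.07 for CXCL8. The count of members called higher was 3 throughout, and 8 once the locus rows were added, an alternative chosen after seeing the data. Over all genes 3868 were past the threshold, and leaving out 1 library gave 2411 to 3606, lowest without YAP replicate 1. With the replicate block 5573 genes passed, 1828 higher and 3745 lower, against 1392 and 2476, and no member call changed. Deviations of same-numbered libraries correlated at -0.02, 0.59 and 0.60. Those of YAP replicate 2 with control replicate 3 correlated at -0.62, and of YAP replicate 3 with control replicate 2 at -0.56. The labels state no pairing, so the main fit used none, and whether same-numbered libraries share a batch was not tested. Calls lower were 64.0% of all calls, but 46.9% (1507 of them) with median-of-ratios scaling and 53.9% with scaling to a fixed sum. The cause of these shifts was not tested. Genes with few reads, such as CXCR1, CXCR2 and IL1B, are limited by depth.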

Other observations

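With no filter on low values, further rows of other chemokine ligands entered the fit. The share of all rows called in that fit was not set beside the calls given here. The rows named here were picked after their values were seen. CXCL14, a chemokine made by epithelial and stromal tissue, had 61, 58 and 31 reads in the libraries labelled YAP and 6, 4 and 3 reads in the control libraries. CCL19, a ligand of CCR7, had 14, 14 and 8 reads in the libraries labelled YAP and 1, 1 and 3 reads in the control libraries. CCL28, a mucosal chemokine, had 2, 1 and 1 reads in the libraries labelled YAP and 4, 3 and 3 reads in the control libraries. It was called lower (limma adjusted p 0.0187, log2 difference -0.08). Its reads lie near the 3 that a count of 0 allows, so counting error limits this call. With no filter, the limma adjusted p was 0.00562 for CXCL14, with a log2 difference of 0.76, and 0.0085 for CCL19, with a log2 difference of 0.41, and all 3 libraries labelled YAP were above all 3 control libraries for CXCL14 and CCL19.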
